A study of Rattus norvegicus with 8 samples.

Results

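The enzymes that remove superoxide, peroxides and free heme were examined in rat primary thymocytes treated with glucocorticoid, through 10 genes chosen by their names on the array: Sod1, Sod2, Cat, Gpx1, Gpx4, Prdx1, Prdx2, Gclc, Gclm and Hmox1. These genes were read by 12 of the 41012 probes. None of the 10 genes passed an adjusted p of 0.05 after dexamethasone. Prdx1 and the brighter of both Gpx1 probes were lower on every Dex array than on any Control array, as were 4.5% of all probes, and Cat differed far more among the Control arrays than between the treatments. Among 46 related antioxidant genes on the array, Sesn1, Sesn3 and Bach1 were higher in Dex and passed the test, as did 0.563% of all probes. Of these genes Bach1 alone passed with the replicate number as a block, and only at the brighter of its probes.

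Reactive oxygen species are removed in steps. Superoxide dismutases convert superoxide, which leaks from the mitochondrial respiratory chain, to hydrogen peroxide. Catalase, the glutathione peroxidases and the peroxiredoxins then reduce the peroxide, and glutathione for the peroxidases is made by glutamate-cysteine ligase. Heme oxygenase breaks down free heme, a catalyst of oxidation. Many of these genes, including Gclc, Gclm, Hmox1 and Prdx1, are known targets of the transcription factor Nrf2, which the gene Nfe2l2 encodes, and which binds antioxidant response elements in their regulatory regions. Thymocytes are immature T cells that die by apoptosis when exposed to glucocorticoids, and peroxide accumulation is one of the events described in that death.

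Thymi of adrenalectomized male Sprague-Dawley rats, which lack their own main source of glucocorticoid, were pooled from 3 animals for a preparation. Part of the thymocytes stayed untreated in culture for 6 hours (Control, 4 arrays), and the rest received the synthetic glucocorticoid dexamethasone at 100 nM for the same time (Dex, 4 arrays). The age of the animals is not given in the sources used here. Labeled cRNA made from the RNA of all cells of a culture was hybridized, so that fewer cells of a type and less RNA per cell cannot be told apart. The methods state 3 biological replicates per group and the labels hold 4 arrays per group, so all 8 were used, and where arrays came from the same preparation the p-values measure a spread that may be partly technical.

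Each array was a 1-color Agilent Whole Rat Genome array with 60-base probes. Values are log2 signals after quantile normalization between arrays, and a difference is the Dex mean minus the Control mean on this log2 scale. The brightest probe stands for a gene, and no probe's level is set against another's. Differences were tested with limma, two-sided, with p-values adjusted by the Benjamini-Hochberg method over all 41012 probes, and intervals are limma's 95% intervals for a single probe. At an adjusted p of 0.05, limma called 0.778% of all probes, 0.563% higher and 0.215% lower in Dex. By the scanner software's flag 24908 to 34472 probes of an array stood well above background and none was saturated. With 4 arrays a group, precision is limited by their number. Control 1 and Dex 3 lay on the same slide, Control 2, 3 and 4 on another, and Dex 1, 2 and 4 on the last, so slide and treatment overlapped for most arrays. The glucocorticoid target genes Tsc22d3, Fkbp5, Klf9 and Ddit4 rose by 3.59, 1.73, 1.98 and 3.73 on the log2 scale (limma, adjusted p = 0.000153, 0.00133, 0.00342 and 0.000153), as the treatment labels state. Of the thymocyte markers, 10 of 11 were on the array and all 10, among them Cd4, Rag1 and Dntt, were well above background on all 8 arrays. None of them passed the test, and 3 of the 10 were higher in Dex by their means. An unadjusted p under 0.05 was found in limma for Ptcra (-0.61, adjusted p = 0.154), Rag1 (-0.59, adjusted p = 0.436) and Cd8b (0.52, adjusted p = 0.326). The summed signal of the 9 measured on every array was 309000 to 342000 in Control, 344000 and 334000 on Dex 1 and 2, and 244000 and 247000 on Dex 3 and 4. Most of it is the signal of Cd3d and Cd3g, whereas Cd8a read 15.21 and 15.28 on Dex 3 and 4 and 15.11 and 15.04 on Dex 1 and 2. Dex 3 and 4 also had the lowest 75th percentiles of intensity before normalization, 266 and 264 units beside 318 to 428 on the other arrays. On these arrays Gpx1, Gpx4, Prdx2, Gclc and Sod2 had their lowest signals and Hmox1 its highest, and the part of either difference in those signals was not tested.

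The probes that read 4 of the enzymes, and 2 of the related genes that passed the test, are printed 5′ to 3′ to show which stretch of the transcript each value stands for. No letter is singled out, so all are in lower case. Positions are those that the array files give on genome build rn3. The Cat probe matched chr3:88579491-88581435, a stretch of 1945 bases that is longer than the probe and therefore holds a gap. The second probe of Gpx1 matched 1046293 to 1046352 of the unordered sequence of chromosome 16 in that build, while RefSeq places Gpx1 on chromosome 8 of the later assembly GRCr8. The Prdx1 probe matched chr5:136988651-136990222, a stretch of 1572 bases, and the Hmox1 probe chr19:13974162-13974221.
Cat: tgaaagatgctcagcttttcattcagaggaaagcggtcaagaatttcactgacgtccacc
Gpx1, second probe: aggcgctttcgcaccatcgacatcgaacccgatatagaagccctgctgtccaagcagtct
Prdx1: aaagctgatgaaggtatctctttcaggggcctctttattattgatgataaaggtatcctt
Hmox1: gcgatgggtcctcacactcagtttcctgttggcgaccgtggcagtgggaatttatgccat
Sesn1: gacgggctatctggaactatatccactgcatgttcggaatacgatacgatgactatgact
Bach1: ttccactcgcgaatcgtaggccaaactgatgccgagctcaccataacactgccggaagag

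Promoters were searched because Nrf2 and its repressor Bach1 bind the same element. The core of the antioxidant response element, spelled TGACNNNGC and searched on both strands, was found in 12.1% of 33469 rat promoters of 300 bases in RefSeq (assembly GRCr8), each reaching from 250 bases before to 50 after the start of the gene. Of the 10 enzyme genes 9 had a promoter in that set, and 3 of these held the core. Windows of 30 bases around it are given on the strand of the gene, with the core in capitals as it reads from the opposite strand. The windows lie at chr1:50050184-50050213 for Sod2, chr5:135383761-135383790 for Prdx1 and chr2:213031953-213031982 for Gclm on GRCr8.
Sod2: ggcgctgccgGCAGGGTCAgcgcctagctg
Prdx1: cagggaaagcGCTGAGTCAtaccccgccgg
Gclm: tgcggtttctGCTTAGTCAttgtcttccag
The core begins at -35, -135 and -172 from the start of Sod2, Prdx1 and Gclm. The promoters of the related genes Sesn1, Sesn3, Bach1, Nqo1 and Txn1 held none. Sequence outside these 300 bases was not searched, so a gene without the core here may hold it elsewhere. These matches describe the letters of the promoters, and binding was not measured.

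**Figure D1:**
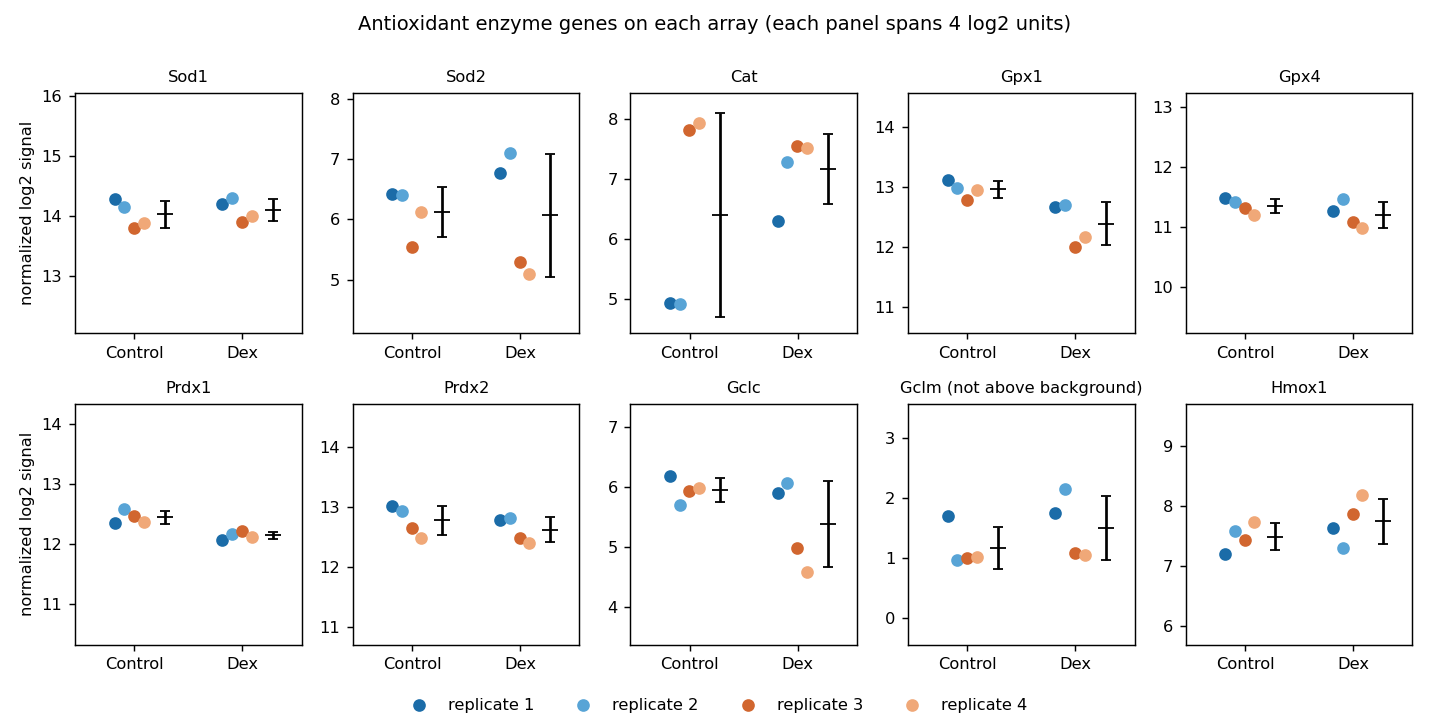
Normalized log2 signal of each antioxidant enzyme gene on the 4 Control and 4 Dex arrays, with the brightest probe of each gene; each panel spans 4 log2 units, points are arrays colored by replicate number, and the horizontal line and bar give the mean and SD of a group. The Dex points of Gpx1 and Prdx1 lie below all Control points, the Cat signals of Control 1 and 2 lie at 4.94 and 4.93 and those of Control 3 and 4 at 7.82 and 7.94, and Gclm was not well above background on any array.

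Of the 9 enzyme genes that were well above background on all 8 arrays, 3 were higher and 6 lower in Dex by their means, with a median log2 difference of -0.15. With Gclm, which lay at background, 4 were higher and 6 lower, with a median of -0.10. Over all probes the median was 0.00. No gene of the 10 passed an adjusted p of 0.05, 1 of them, Gpx1, had an unadjusted p under 0.05, and 4327 of all probes did. The groups did not overlap for 2 of them, Gpx1 and Prdx1, both lower in Dex. Among all probes, 4.5% were lower and 4.6% higher in Dex without overlap. The median absolute difference of all 10 genes was 0.28, beside 0.27 over all probes.

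Sod1, the cytosolic copper and zinc superoxide dismutase, had signals of 14.28, 14.14, 13.79 and 13.88 on Control arrays 1 to 4. On Dex arrays 1 to 4 the signals were 14.19, 14.30, 13.89 and 13.99. The groups overlapped throughout their range, and replicates 1 and 2 were the brighter arrays in both. The difference was 0.07 (SE 0.18, 95% interval -0.34 to 0.48; limma, adjusted p = 0.922), an interval of 0.792 to 1.40 times Control. A second probe of Sod1 gave 0.12 (limma, adjusted p = 0.879). The sign of both probes depended on the fit: on the slide shared by Control 1 and Dex 3 they differed by -0.39 and -0.44.

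Sod2, the manganese superoxide dismutase of the mitochondrial matrix, is induced by inflammatory signals in many cells. Its signals were 6.43, 6.40, 5.54 and 6.13 in Control and 6.77, 7.11, 5.29 and 5.10 in Dex. Dex 1 and 2 lay above all Control arrays, and Dex 3 and 4 lay below all of them. The mean difference was -0.06 (SE 0.49, 95% interval -1.19 to 1.07; limma, adjusted p = 0.978). It was 0.53 within replicates 1 and 2 and -0.64 within replicates 3 and 4, so the mean describes neither pair of arrays. Its direction also changed with the normalization, to 0.10 with 75th percentile scaling.

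Cat, which splits hydrogen peroxide into water and oxygen in peroxisomes, had the widest spread of the enzymes among untreated cultures. Its signals were 4.94, 4.93, 7.82 and 7.94 on Control arrays 1 to 4 and 6.31, 7.29, 7.56 and 7.52 on the Dex arrays. Control 1 and 2 were low, and all Dex arrays lay between them and Control 3 and 4. The range within Control was 3.01 on the log2 scale, or 8.06-fold, and the Control SD of 1.70 stood at the 99.7th percentile of all probes. On the scale of the scanner, before normalization, the same spot read 32.1, 38.1, 203 and 297 intensity units on Control 1 to 4, and 73.2, 145, 157 and 152 on Dex 1 to 4. The probe was well above background on each array. The mean difference of 0.76 (SE 0.78, 95% interval -1.04 to 2.57) was smaller than the Control SD (limma, adjusted p = 0.794). Within replicates 1 and 2 it was 1.87, within replicates 3 and 4 it was -0.34, and on the shared slide Dex 3 exceeded Control 1 by 2.62. Catalase is also abundant in erythroid cells. Of 7 erythroid markers listed, the 3 on the array, Hbb, Alas2 and Slc4a1, had summed signals of 662, 1380, 304 and 688 in Control and 1080, 2350, 343 and 1060 in Dex.

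The genes whose signals followed Cat most closely over the 8 arrays were Neu1, Sqstm1, Casp6, Wars and Snx15, with Pearson r of 0.950, 0.944, 0.940, 0.927 and 0.908 among 7013 probes with a gene symbol that were well above background on all arrays. These correlations are descriptions over shared arrays, and each of the 5 genes had its lowest signals on Control 1 and 2. Over the other 6 arrays r was 0.864, 0.826, 0.704, 0.879 and 0.206, so that Snx15 followed Cat little without these arrays. Neu1, a lysosomal sialidase, read 10.94, 11.08, 11.56 and 11.66 in Control and 11.27, 11.29, 11.52 and 11.47 in Dex. Sqstm1, the autophagy receptor p62, read 11.04, 11.16, 11.53 and 11.44 in Control and 11.25, 11.42, 11.55 and 11.54 in Dex. Their ranges were far narrower than that of Cat. None of the 5 genes passed the test between treatments (limma, adjusted p = 0.820 to 0.988).

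Gpx1, the abundant glutathione peroxidase of cytosol and mitochondria, was lower in Dex by 0.57 on the log2 scale. Its brightest probe read 13.13, 12.99, 12.79 and 12.96 in Control and 12.68, 12.71, 12.01 and 12.18 in Dex. All Dex arrays lay below all Control arrays, with Dex 3 and 4 the lowest. The difference was -0.57 (SE 0.21, 95% interval -1.05 to -0.10), a Dex signal of 0.672 times Control, with an unadjusted p of 0.023 in limma and an adjusted p of 0.36. With the replicate number as a block the adjusted p was 0.314. The second probe, whose sequence is printed above, read 12.58, 12.29, 12.21 and 12.33 in Control and 12.16, 12.26, 11.46 and 11.74 in Dex. Here Dex 2 lay within the Control range, and the difference was -0.45 (95% interval -0.94 to 0.04; limma, adjusted p = 0.526). Both probes therefore gave the same direction, and neither passed the test. On the shared slide the differences were -1.12 and -1.11.

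Gpx4, the peroxidase that reduces lipid hydroperoxides in membranes and restrains ferroptosis, read 11.48, 11.41, 11.31 and 11.20 in Control. In Dex it read 11.27, 11.47, 11.09 and 10.98. The groups overlapped, since Dex 2 lay near the top of the Control range. The difference was -0.15 (SE 0.16, 95% interval -0.53 to 0.23; limma, adjusted p = 0.811). It was -0.07 without Dex 4, -0.24 without Dex 2 and -0.39 on the shared slide.

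Prdx1, a cytosolic peroxiredoxin and a known Nrf2 target, had the tightest groups of the enzymes. It read 12.34, 12.58, 12.47 and 12.37 in Control and 12.07, 12.17, 12.21 and 12.11 in Dex. The highest Dex array lay below the lowest Control array. The SDs were 0.11 in Control and 0.06 in Dex, and the Dex SD stood at the 1.8th percentile of all probes. The difference was -0.30 (SE 0.14, 95% interval -0.61 to 0.02), or a Dex signal of 0.813 times Control, with an unadjusted p of 0.0604 and an adjusted p of 0.503 in limma. The methods' signal to noise statistic divides the difference of the means by the summed SDs. At its one-tailed nominal p of 0.01 and fold of 1.2 it called Prdx1, along with 2784 of all probes, or 6.79%. Its p for Prdx1 was 0.00207, by permutation over the 70 ways to assign the arrays, pooled for all probes. Within the replicate numbers 1 to 4, Prdx1 was lower in Dex by similar amounts, with differences of -0.26, -0.40, -0.26 and -0.27. On the shared slide it was -0.13.

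Prdx2, a cytosolic peroxiredoxin that is especially abundant in red blood cells, read 13.02, 12.94, 12.65 and 12.49 in Control and 12.78, 12.82, 12.48 and 12.40 in Dex. The groups overlapped, and replicates 1 and 2 were the brighter arrays of each. Same-numbered arrays differed by -0.23, -0.12, -0.17 and -0.09, lower in Dex in all 4 pairs. The difference was -0.15 (SE 0.19, 95% interval -0.59 to 0.28; limma, adjusted p = 0.832). It was -0.07 without Control 1, -0.25 without Control 4 and -0.54 on the shared slide. None of the 3 erythroid markers passed the test either, and their highest sum, 2350, was on Dex 2, where Prdx2 read 12.82. Most of the sum is the signal of Hbb and Alas2. Slc4a1 went the other way among the Dex arrays, at 5.84 and 6.15 on Dex 1 and 2 and 6.60 and 7.24 on Dex 3 and 4. The part of such cells in Prdx2 and Cat was not tested.

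**Figure D2:**
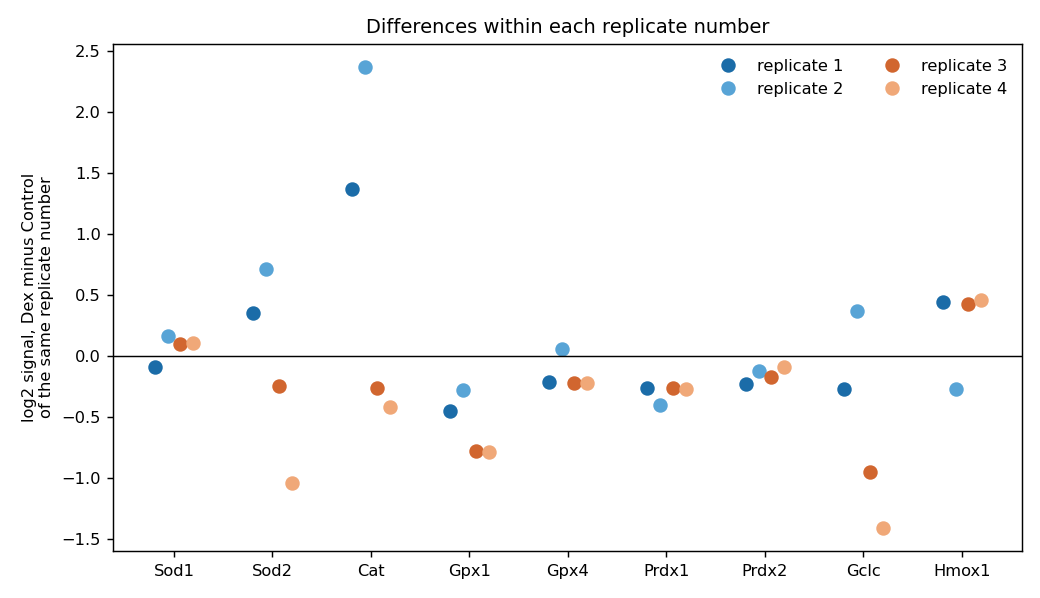
Difference in log2 signal between the Dex and Control arrays of the same replicate number, for the 9 antioxidant enzymes above background; each point is 1 pair of arrays and the line marks no difference. The 4 points lie below the line for Gpx1, Prdx1 and Prdx2, while for Sod2 and Cat replicates 1 and 2 lie above it and replicates 3 and 4 below it.

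Glutamate-cysteine ligase, which limits the rate of glutathione synthesis, consists of a catalytic subunit, Gclc, and a modifier subunit, Gclm. Gclc read 6.18, 5.70, 5.93 and 5.99 in Control and 5.91, 6.07, 4.98 and 4.58 in Dex. Dex 1 and 2 lay within the Control range, and Dex 3 and 4 lay below all Control arrays. The difference was -0.56 (SE 0.34, 95% interval -1.36 to 0.23; limma, adjusted p = 0.647). It was 0.05 within replicates 1 and 2 and -1.18 within replicates 3 and 4. On the shared slide it was -1.20, and with normexp background correction it was -0.20.

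Gclm was not well above background on any of the 8 arrays. Its spot read 1.64 to 2.62 intensity units before normalization, so no fold change is given and its level is bounded only from above by the background. The single probe for Gclm is made of 85% A and T bases, 51 of 60, beside a median of 56.7% over all probes. The part of this composition in the low signal was not tested.

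Hmox1, the inducible heme oxygenase and a classic oxidant-induced gene, was printed 10 times on each array. It read 7.20, 7.58, 7.44 and 7.73 in Control and 7.63, 7.30, 7.86 and 8.19 in Dex. Dex 3 and 4 lay above all Control arrays, and Dex 2 lay below all but Control 1. The repeated spots of an array had an SD of 0.05 to 0.10 on the log2 scale, so that the arrays of a group differed by more than their spots did. The difference was 0.26 (SE 0.23, 95% interval -0.26 to 0.78; limma, adjusted p = 0.748). It was 0.12 without Dex 4 and 0.67 on the shared slide. Hmox1 is also expressed strongly in macrophages, and 9 macrophage markers on the array had summed signals of 4450 to 6160 in Control and 4290 to 8770 in Dex, of which none passed the test. The sum, most of which is the signal of Lyz2, was highest on Dex 4 and lowest on Dex 3. The complement gene C1qc was higher on every Dex array, by 0.97, and highest on Dex 3 and 4, at 7.65 and 7.96 (limma, adjusted p = 0.327). C1qb differed by 0.84 and was also highest on Dex 3 and 4, at 9.49 and 10.01 (limma, adjusted p = 0.33). C1qa, of the same complex, was highest on Dex 1 and 2, at 7.96 and 8.05, Cd14 was lowest on Dex 3 and 4, at 4.98 and 5.25, and Cd68 differed by -0.12. The markers thus did not all follow Hmox1 from array to array, and the part of macrophages in Hmox1 was not tested. The markers of B cells summed to 74.3 to 132 in Control and 74.2 to 150 in Dex, and those of stromal cells to 805 to 1220 and 609 to 1580, and none of them passed the test. The stromal sums were 743 and 609 on Dex 1 and 2 and 1580 and 1520 on Dex 3 and 4. Most of them is the signal of Col1a1, which differed by 0.57, and Col1a2, which differed by -0.76. The part of stromal cells in the enzyme signals was not tested.

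Enzymes of the same family were compared within each array, since a difference of their log2 signals removes what an array does to both alike. Of the 3 pairs compared, the change of Gpx4 exceeded that of Gpx1 by 0.43 (exact interval 0.06 to 0.84), positive in 4 of 4 pairs of same-numbered arrays. An exact two-sided permutation test over the arrays gave p = 0.0286, the smallest that 4 against 4 arrays allow, and an adjusted p of 0.0858 over the 3 pairs. This pair used the brighter Gpx1 probe. The second Gpx1 probe differed by -0.45, nearer to the -0.15 of Gpx4, and the pair was not tested with it. The change of Prdx2 exceeded that of Prdx1 by 0.15 (exact interval -0.41 to 0.59; exact permutation test, adjusted p = 0.6), and was likewise positive in 4 of 4 pairs of same-numbered arrays. The change of Sod2 less that of Sod1 was -0.13 (exact interval -1.16 to 1.06; exact permutation test, adjusted p = 0.771). With the replicate numbers as pairs, an exact sign-flip test gave p = 0.125 for both Gpx4 less Gpx1 and Prdx2 less Prdx1, the smallest that 4 pairs allow, and 0.188 adjusted. It gave 0.875 for Sod2 less Sod1. No pair of genes passed 0.05 after adjustment in either test, and the unpaired intervals of the Sod and Prdx pairs admit differences in both directions. The pair of Gclm and Gclc was left out because Gclm lay at background.

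**Figure D3:**
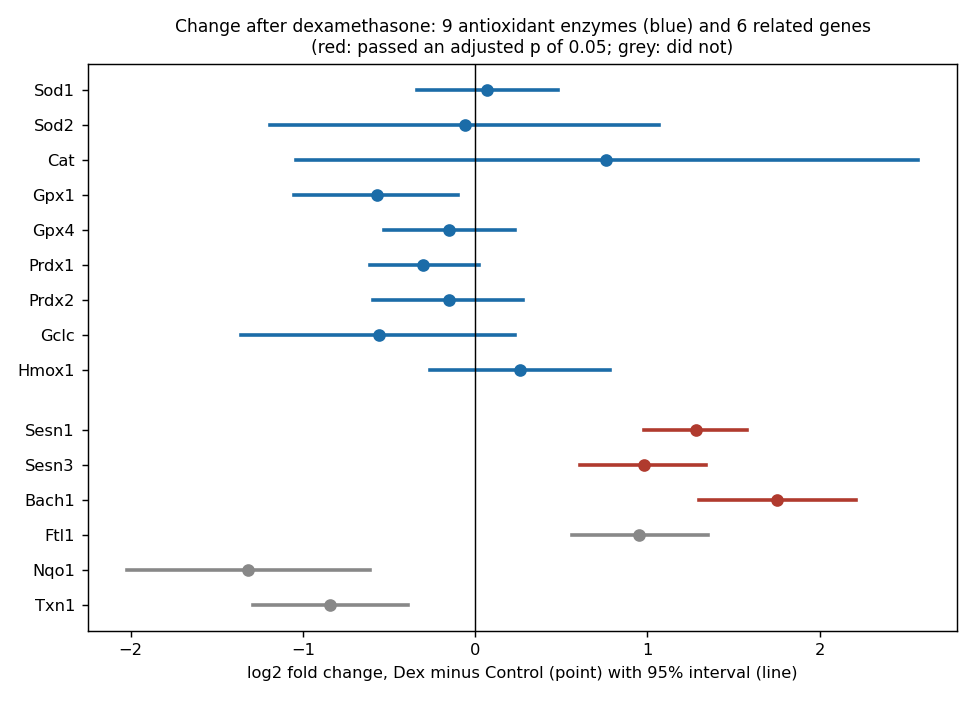
Log2 difference between Dex and Control (points) with limma's 95% interval (lines) for 9 antioxidant enzymes in blue and for related genes in red where the adjusted p was 0.05 or less and in gray where it was not. The intervals of the enzymes include 0 except that of Gpx1, at -1.05 to -0.10, and those of Sesn1, Sesn3 and Bach1 lie above 0.6.

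A wider list held 50 further genes of superoxide and peroxide removal, glutathione supply, thioredoxins, quinone, heme and iron handling, methionine sulfoxide repair, their regulators, and subunits of the superoxide-producing oxidase. Of these 46 were on the array, 43 of them well above background on all arrays. By their means 24 were higher and 22 lower in Dex, with a median log2 difference of 0.06. In limma 3 passed, or 2 with the sestrins and 1 among the regulators, all higher, beside 0.563% of all probes that were higher and passed, and 1 of them, Bach1, passed with the replicate number as a block. An unadjusted p under 0.05 was found for 11 of the 46 genes, 6 higher and 5 lower, and for 4327 of the 41012 probes, 2309 higher and 2018 lower. The groups did not overlap for 6 genes that were higher and 4 that were lower in Dex, beside 4.6% and 4.5% of all probes. None of the 11 further superoxide and peroxide enzymes passed, nor any of the 6 measured genes of glutathione supply, the 8 thioredoxin and glutaredoxin genes or the 4 measured oxidase subunits.

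Sesn1, a stress-induced sestrin that restrains growth signaling and supports the recycling of oxidized peroxiredoxins, read 11.20, 11.27, 11.27 and 11.28 in Control and 12.47, 12.60, 12.58 and 12.49 in Dex. All Dex arrays lay far above all Control arrays. The rise was 1.28 (SE 0.13), or 2.43-fold (limma, adjusted p = 0.00543), with an adjusted p of 0.077 in limma with the replicate number as a block. Sesn3, of the same family and a known target of FoxO factors, read 7.41, 7.20, 7.03 and 7.42 in Control and 8.34, 8.34, 8.04 and 8.25 in Dex. It rose by 0.98, or 1.97-fold (limma, adjusted p = 0.041, and 0.14 with the block), and did not pass when any 1 of the 8 arrays was left out, at limma adjusted p-values of 0.06 to 0.173. Its other probe rose by 1.17 (limma, adjusted p = 0.00816, and 0.0909 with the block). With 75th percentile scaling in place of quantile normalization neither Sesn1, at 1.30, nor Sesn3, at 0.98, passed (limma, adjusted p = 0.124 and 0.088). The glucocorticoid targets Fkbp5, at 1.76, and Klf9, at 2.01, did not pass with this scaling either (limma, adjusted p = 0.0533 and 0.0657).

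Bach1, the heme-regulated repressor that competes with Nrf2 for the antioxidant response element, read 9.21, 9.44, 9.03 and 9.37 in Control and 10.90, 11.22, 10.64 and 11.31 in Dex. Here too the groups lay well apart. The rise was 1.75 (SE 0.20), or 3.37-fold (limma, adjusted p = 0.00851, and 0.0418 with the block). A second, dimmer probe of Bach1 gave 0.93 and did not pass (limma, adjusted p = 0.194). Bach1 is known to repress Hmox1, whose own difference of 0.26 did not pass. Nfe2l2 differed by 0.43 (limma, adjusted p = 0.393), and Keap1, which marks Nrf2 for degradation, by 0.04 (limma, adjusted p = 0.951), or -0.21 with slide as a fixed block.

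The next genes by p-value were Ftl1, Nqo1, Txn1, Prdx6 and Mafk. Ftl1, the iron-storing ferritin light chain, differed by 0.95 at its brightest probe (limma, adjusted p = 0.058). That probe passed with normexp, without dim probes and with slide as a random block (limma, adjusted p = 0.0146, 0.0259 and 0.00915). In the main setting 3 of the 5 Ftl1 probes passed (limma, adjusted p = 0.0303, 0.0456 and 0.0494). None passed with the replicate number as a block (limma, adjusted p = 0.153, 0.183 and 0.196 for these 3). All 5 probes were higher in Dex, by 0.95 to 1.10, and near-identical ferritin copies may share their signal. Nqo1, a quinone reductase and a standard Nrf2 target, read 6.90, 6.74, 5.82 and 5.82 in Control and 4.92, 4.74, 4.95 and 5.42 in Dex, and its difference of -1.32 did not pass (limma, adjusted p = 0.133). Txn1, the cytosolic thioredoxin that keeps peroxiredoxins reduced, read 14.49, 14.62, 14.08 and 14.17 in Control and 13.68, 13.73, 13.23 and 13.37 in Dex, a difference of -0.84 (limma, adjusted p = 0.135). Txn1 passed with normexp background correction (limma, adjusted p = 0.0462) and with slide as a random block (limma, adjusted p = 0.027). The random block fit estimated a correlation of -0.235 within slides and gave Txn1 an SE of 0.15, beside 0.20 in the main fit. Slide and treatment overlapped for most arrays, so a pass in that fit does not show that slide was accounted for. With normexp background correction the difference of Nqo1 was -0.54, on the shared slide it was -1.96, and with slide as a random block it passed at -1.21 (limma, adjusted p = 0.0278). Prdx6, a peroxiredoxin that uses glutathione, differed by 0.48 (limma, adjusted p = 0.276, 0.0437 with normexp and 0.0484 with slide as a random block), and Mafk, a small Maf partner of both Nrf2 and Bach1, by -0.63 (limma, adjusted p = 0.278). Of these 5 genes, every Dex array lay above every Control array for Ftl1 and Prdx6 and below for Nqo1, Txn1 and Mafk.

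**Figure D4:**
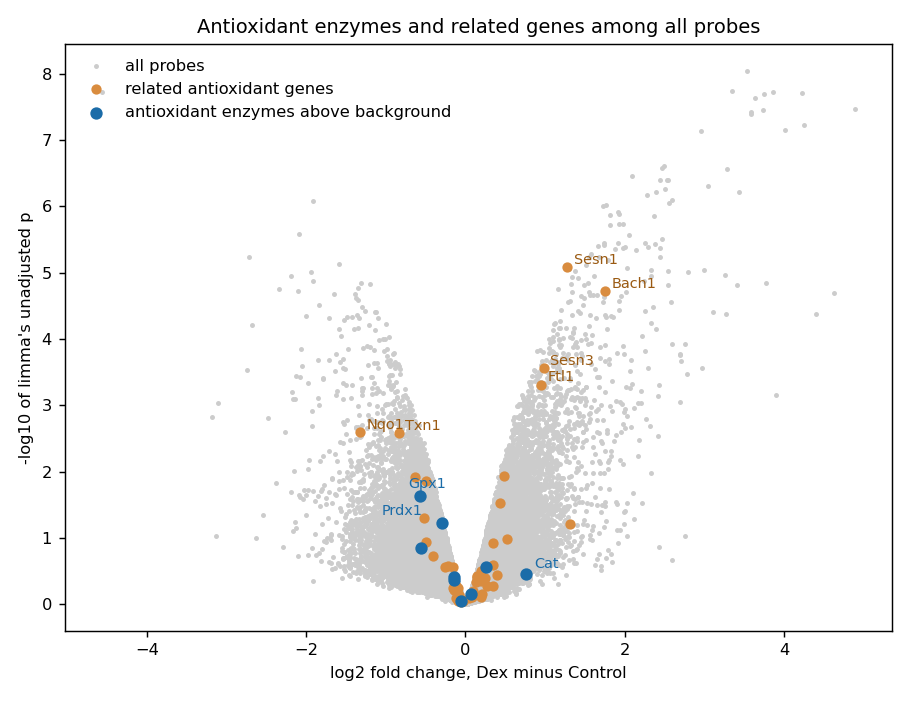
Volcano plot of all probes (gray), with the log2 difference between Dex and Control on the horizontal axis and -log10 of limma's unadjusted p on the vertical axis; blue points are 9 antioxidant enzymes and orange points the 46 related genes. The enzymes lie low in the plot, Gpx1 highest among them at an unadjusted p of 0.023, and Sesn1 and Bach1 lie among the probes that passed.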

How the data were processed

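The authors made Cy3-labeled cRNA from total RNA, hybridized it to Agilent arrays read in 1 color, and obtained spot intensities with Feature Extraction (version 9.5.3.1 in the deposited files), which subtracts background and flags spots that are outliers, saturated or well above background. No scaling between arrays was applied to the intensities that the authors deposited. Their series table holds log2 values after quantile normalization and a median polish over the spots of a probe.

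These steps were repeated from 43379 non-control spots, without the 767 spot values flagged as outliers, and gave 41012 probes with 16 missing values. The median absolute difference from the deposited log2 values was 0.00158 or less on each array. limma (version 3.58.1, R version 4.3.3) was fitted to 4 Control and 4 Dex arrays without a block, two-sided, with Benjamini-Hochberg adjustment at 0.05, and was tested on simulated data. Probes keep the array's gene names, without the suffix _predicted, and 10735 were matched to the reference gene table by accession. The brightest probe stands for a gene. Precision is limited by the number of arrays and, for dim probes, by signal over background.

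The members and gene lists were chosen with earlier results of these data known. The related genes named are those that passed and otherwise the 5 with the smallest p, and Nfe2l2 and Keap1 were added after their values were seen, as were erythroid and macrophage sums beside Cat, Prdx2 and Hmox1. Genes like Cat were the 5 with the highest Pearson r. Of 4 planned within-family pairs, that of Gclm and Gclc was not tested, since Gclm lay at background. Sesn2, Ggct, Msrb1 and Ncf4 were not analysed here, and Hmox1 had no promoter in the table used.

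Same-numbered Control and Dex arrays deviated together from their group means, with correlations across probes of 0.40, 0.13, 0.55 and 0.18 for replicates 1 to 4. The numbers come from the labels and were taken to pair the arrays. Some arrays with different numbers correlated as strongly or more strongly, at 0.40 for Control 1 with Dex 2, 0.39 for Control 3 with Dex 4 and 0.19 for Control 2 with Dex 1. The pairing by number is therefore an assumption, on which the block fits and the sign-flip test rest. Alternatives changed the scaling, background correction, filter on dim probes, values, probe of a gene, block, slide, test and arrays.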

Additional observations from a re-analysis of the deposited data

Results flagged for a closer look

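In 52 groups of 4 arrays, 1 for each probe named and treatment, the distance of the farthest array from its nearest neighbor was divided by the range of the group and set against Dixon's 95% critical value, which chance alone passes in about 1 in 20 groups. Of the 52 groups 2 were marked. The Control signals of Gclm were 0.98, 1.00, 1.03 and 1.70 on the log2 scale, with Control 1 apart from the others (ratio 0.931), all of them at background. The Control signals of Sesn1 were 11.20, 11.27, 11.27 and 11.28, with Control 1 the lowest (ratio 0.864) by an amount that is small beside the Dex rise of 1.28. The low Cat signals of Control 1 and 2 lie close together and were not marked by this ratio, which looks for 1 array apart.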

How the results depend on the processing

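Of all probes 319 passed in the main setting. This number was 166 with 75th percentile scaling, 915 with normexp background correction (497 higher and 418 lower, beside 231 and 88), 562 without dim probes, 1 with slide as a fixed block, 1838 with slide as a random block, 2784 by the methods' signal to noise statistic and 96 to 249 when 1 array was left out, lowest without Control 4. The fit with slide as a random block estimated a correlation of -0.235 within slides, so its larger number says little. A term for replicates 1 and 2 against 3 and 4, chosen after seeing the data, gave 670. With the replicate number as a block 81 passed, and the block changed the calls of both Sesn1 and Sesn3 and of 3 Ftl1 probes that are not the brightest, and of no enzyme gene.

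No enzyme gene of the 10 passed under any alternative, except Prdx1 by the signal to noise statistic (1 gene). Of the related genes, where 3 passed, the number was 1 with 75th percentile scaling (Bach1), 6 with normexp, 1 with the replicate block (Bach1), 0 with slide as a fixed block (which also lost Tsc22d3 at 3.75 and Ddit4 at 3.55, so that its lost calls say little), 7 with slide as a random block, 10 by the signal to noise statistic and 5 with the term for replicates 1 and 2 against 3 and 4, and 2 (Sesn1 and Bach1) when any 1 array was left out.

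Over all alternatives the difference of Gpx1 lay between -1.12 and -0.45, that of Prdx1 between -0.33 and -0.13, that of Cat between 0.27 and 2.62 and that of Gclc between -1.20 and -0.20. The ends of -1.12, -0.13, 2.62 and -1.20 came from slide as a fixed block. There the difference rests on Control 1 and Dex 3 alone, the only arrays of both treatments on the same slide. Signs turned for Sod1, Sod2, their pair, Neu1, Wars and Keap1. Sod1 was -0.39 with slide as a fixed block (-0.44 at its second probe) and -0.01 without Control 3. Sod2 was 0.10 with 75th percentile scaling, 0.03 with normexp, 0.12 with slide as a random block, 0.04 and 0.03 without Control 1 and 2, and 0.20 and 0.27 without Dex 3 and 4, and Sod2 less Sod1 was 0.06 and 0.16 without the same Dex arrays, over a range of -0.41 to 0.16. Neu1 was -0.04 without Control 1. Wars was -0.08 with slide as a random block, -0.17 and -0.15 without Control 1 and 2, -0.05 without Dex 2, and up to 0.25 without another array. Keap1 was -0.21 with slide as a fixed block, -0.01 without Control 3 and -0.04 without Dex 2, and up to 0.14 without another array. The cause of these turns was not tested.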
